A study of Mus musculus with 12 samples.

Results

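The genes described here are ligands, a receptor and antagonists of the bone morphogenetic protein (BMP) pathway together with the Id genes: Id1, Id2, Id3, Id4, Bmp2, Bmp4, Bmpr1a, Grem1, Nog and Bambi. They were chosen by name, with earlier results of these data known. The shares of all genes given beside counts below are therefore no test of the set. Every probeset annotated to exactly 1 of these symbols was taken, which gave 14 probesets for the 10 genes, of 17097 genes measured in all. Each gene was read from its brightest probeset, the one with the highest mean over all 12 arrays, and the further probesets of Id2 (2 more) and Id4 (2 more) are given beside it. No filter on low values was set, so that all 10 genes entered every comparison.

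RNA of mouse mesenchymal stem/stromal cells (MSCs) was hybridized to 12 Affymetrix MG-430 PM arrays. The cells came from bone marrow of Mapk14 lox/lox mice with an inducible Cre transgene, and had been immortalized by serial passage with a 3T3 protocol. The labels give the background strain as FVB/NJ, whereas the study's methods name another for its mice. The Cre recombinase becomes active with 4-hydroxytamoxifen, and cells of all groups carry the floxed alleles of Mapk14, the gene of p38α, and the transgene. WT MSCs received vehicle, and p38α∆ MSCs received 4-hydroxytamoxifen for 2 days to delete Mapk14. All cells were starved in 0.5% serum, and the treated groups received 5 ng/ml TGF-β for 20 h. There were 4 arrays of WT MSCs (numbered 1, 3, 4 and 4b), 3 of TGF-β-treated WT MSCs (1, 3 and 4), 2 of p38α∆ MSCs (1 and 3) and 3 of TGF-β-treated p38α∆ MSCs (1, 2 and 4). Values of a group are given below in that order. The meaning of the numbers, and whether a group's arrays come from separate cultures, is not given in the sources used here. The p-values therefore measure only how these arrays spread, and the small number of arrays limits the precision.

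BMPs are secreted growth factors of the TGF-β superfamily. They bind type I receptors such as Bmpr1a together with the type II receptor Bmpr2, and the complex phosphorylates Smad1, Smad5 and Smad9, which enter the nucleus with Smad4, whereas TGF-β itself acts mainly through Smad2 and Smad3. Id genes are direct targets of the BMP Smads, and their proteins bind E proteins and keep them from DNA, which holds back differentiation. In mesenchymal cells the pathway is best known for driving bone and cartilage formation. Nog (noggin) and Grem1 (gremlin) trap BMP ligands outside the cell, and Bambi is a decoy receptor that lacks a kinase domain.

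The upstream sequences of the 4 matched members that passed the test with TGF-β, described below, are shown so that their differing letters can be set beside their differing responses. They are the 250 bases before the annotated start in RefSeq (build GRCm38.p6), on the strand of the gene. Such sequences were taken for 6 of the 10 members, and Bambi, which passed in p38α∆ MSCs, is not among those 6. Capitals mark matches on either strand to CAGAC, the box that Smad3 and Smad4 bind, or to GGCGCC, a GC-rich element bound by Smads. Id2 lies at chr12:25096093-25096342 on the minus strand, Id3 at chr4:136143572-136143821 on the plus strand, Bmp4 at chr14:46390670-46390919 on the minus strand and Grem1 at chr2:113758649-113758898 on the minus strand.
Id2: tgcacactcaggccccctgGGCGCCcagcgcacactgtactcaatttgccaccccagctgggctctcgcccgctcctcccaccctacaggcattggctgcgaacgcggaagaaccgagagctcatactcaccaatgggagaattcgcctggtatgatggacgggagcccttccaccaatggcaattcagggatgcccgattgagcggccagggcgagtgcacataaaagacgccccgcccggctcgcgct
Id3: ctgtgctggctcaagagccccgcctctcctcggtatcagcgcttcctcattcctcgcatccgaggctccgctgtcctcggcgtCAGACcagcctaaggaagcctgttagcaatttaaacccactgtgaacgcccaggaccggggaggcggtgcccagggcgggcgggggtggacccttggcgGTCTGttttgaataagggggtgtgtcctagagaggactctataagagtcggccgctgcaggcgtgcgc
Bmp4: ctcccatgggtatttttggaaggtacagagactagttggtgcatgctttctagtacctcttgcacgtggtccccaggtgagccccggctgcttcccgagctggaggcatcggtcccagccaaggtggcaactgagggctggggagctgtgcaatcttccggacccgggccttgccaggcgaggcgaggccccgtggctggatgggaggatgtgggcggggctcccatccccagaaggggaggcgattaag
Grem1: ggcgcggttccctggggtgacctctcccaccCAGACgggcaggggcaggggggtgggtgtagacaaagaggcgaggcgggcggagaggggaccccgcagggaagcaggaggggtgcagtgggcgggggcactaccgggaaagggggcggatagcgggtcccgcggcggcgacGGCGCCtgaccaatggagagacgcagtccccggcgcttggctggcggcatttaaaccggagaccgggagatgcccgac

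Id3 held CAGAC at 2 places, 167 and 68 bases before the start (counted to the match's first base), Grem1 held it once, at 219, and Id2 and Bmp4 did not hold it. GGCGCC was found once in Id2 (231 bases before the start) and once in Grem1 (78). Among all 32851 promoters of that length, 42.2% held CAGAC and 9.59% held GGCGCC on either strand, and the 2 motifs do not overlap in these sequences. The E-box CANNTG, the site that E proteins bind, occurred 3 times in Bmp4 and once in Id2, and in 66.2% of all promoters. The ATF site TGACGTCA, which 1.55% of all promoters held, was in none of the 6. Of the other matched members, Id4 and Bmpr1a each held GGCGCC once, 148 and 198 bases before the start, and held neither CAGAC nor the E-box. A match describes letters only, and none of these motifs was common to Id2, Id3 and Bmp4.

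The first principal component, with 50.6% of the variance, separated the 4 arrays numbered 1 from the other 8, and the second (23.9%) separated TGF-β-treated from untreated arrays. The targeted gene, Mapk14, had log2 values of 8.95 to 9.32 in the 7 WT arrays and 9.01 to 9.51 in the 5 p38α∆ arrays at its brightest probeset. Which Mapk14 probesets fall in the deleted region is not given in the sources used here, and the genotype labels could not be checked by these values. All 7 measured MSC markers lay above the median of all probesets (4.25), whereas all 5 endothelial markers (means 3.33 to 3.93) and all 3 adipocyte markers lay below it. Above it lay 3 of 4 osteoblast markers, 2 of 4 chondrocyte markers, 1 of 4 leukocyte markers (Cd68, 4.41, with the pan-leukocyte marker Ptprc at 2.78) and 1 of 4 epithelial markers (Krt8, 4.29).

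Id3 and Bmp4 fell strongly with TGF-β in both genotypes, and Id2 fell less at its brightest probeset. At its second probeset Id2 fell about as much as they did (log2 fold changes of −1.27 in WT and −1.64 in p38α∆ MSCs). Of the 10 genes, 3 fell, 1 rose (Grem1) and 6 did not pass in WT MSCs, and 3 fell, 1 rose (Bambi) and 6 did not pass in p38α∆ MSCs (limma, adjusted p under 0.05 over 45037 probesets). Over all 17097 genes, 7.95% passed in WT MSCs (3.47% higher and 4.48% lower) and 7.1% in p38α∆ MSCs (2.99% higher and 4.11% lower). The median log2 fold change of the 10 genes was −0.01 in WT and 0.04 in p38α∆ MSCs, against −0.01 and −0.00 for all genes. By probeset, 5 of 14 passed in each genotype (1 higher, 4 lower), against 6% and 5.21% of all probesets. Arrays with and without TGF-β did not overlap for 1 gene upward and 3 downward (Id2, Id3 and Bmp4) in each genotype. The upward gene was Bmp2, which did not pass, in WT and Bambi in p38α∆ MSCs. Of all genes, 5.37% upward and 7.99% downward did not overlap in WT and 9.67% and 12.2% in p38α∆ MSCs. Without the array number as a block only Id3 and Bmp4 passed, in each genotype. The arrays measured bulk RNA, in which fewer cells expressing a gene and less of its RNA per cell cannot be told apart.

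**Figure D1:**
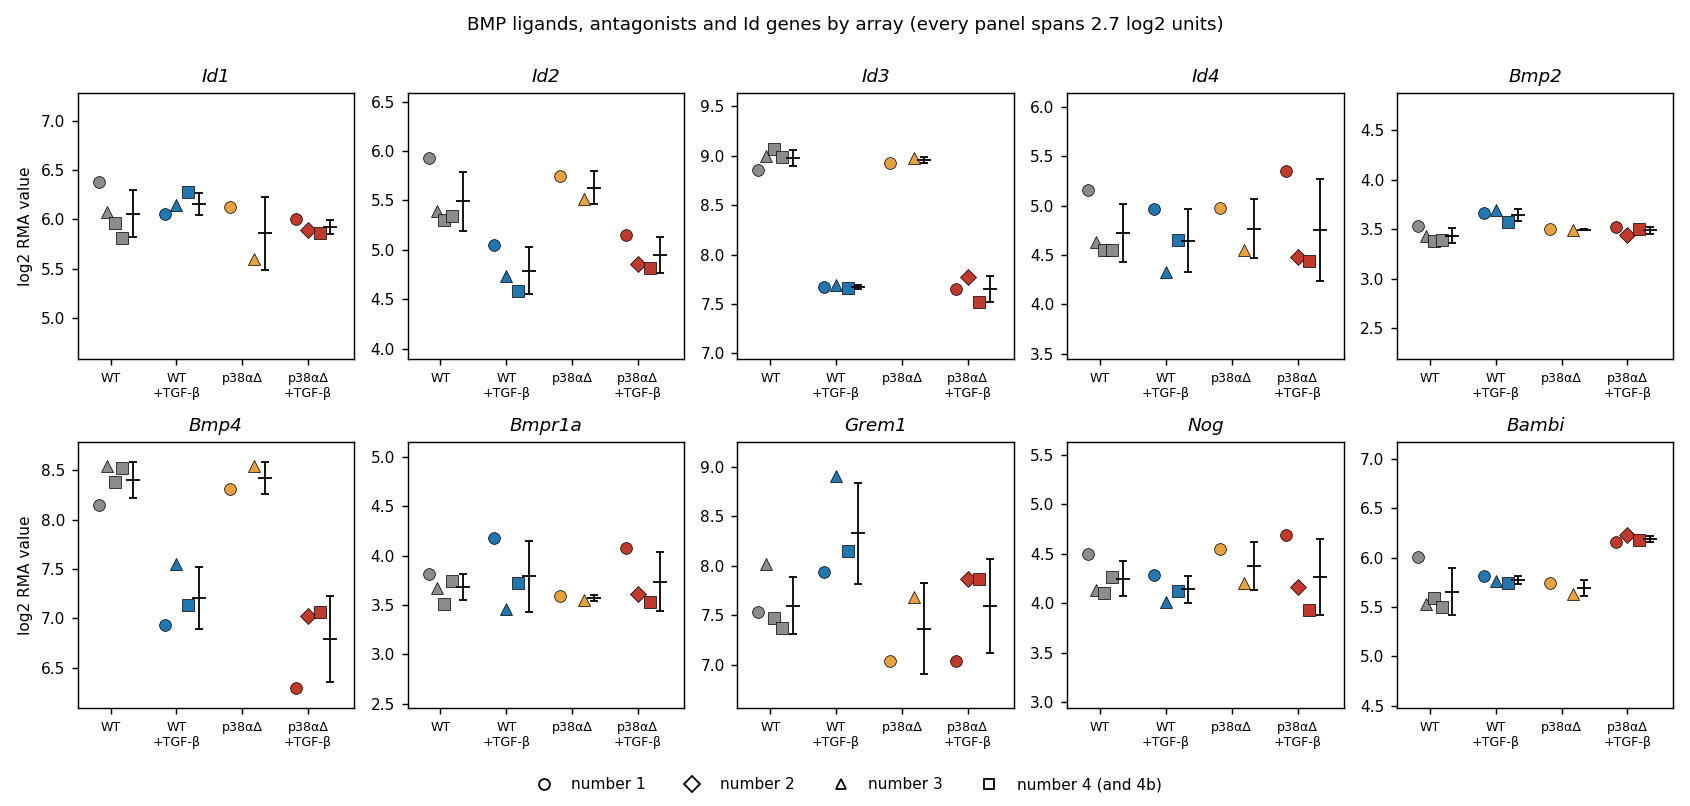
Log2 RMA values (vertical axis) of the 10 genes at their brightest probeset, 1 point per array in the 4 groups, with the shape for the array's number and, to the right, group means with SD bars. Id3 and Bmp4 lie lower in every TGF-β-treated array than in every untreated one (Id3 at 7.52 to 7.78 against 8.86 to 9.06), and the 3 TGF-β-treated p38α∆ arrays stand highest for Bambi (6.16 to 6.23).

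Id3, an inhibitor of E proteins, had log2 values of 8.86, 9.00, 9.06 and 8.99 in WT MSCs and of 7.67, 7.69 and 7.66 with TGF-β. In p38α∆ MSCs the values were 8.93 and 8.97, and with TGF-β 7.65, 7.78 and 7.52. Every treated array thus lay more than 1 log2 unit below every untreated one, and treated arrays of the 2 genotypes overlapped. In WT MSCs Id3 fell 2.47-fold, a log2 change of −1.31 (limma, SE 0.07, adjusted p = 9.51e-07), and in p38α∆ MSCs 2.51-fold, a log2 change of −1.33 (SE 0.09, adjusted p = 8.29e-06). Within the array numbers it was −1.19, −1.31 and −1.37 in WT MSCs (numbers 1, 3 and 4). Here and below, the treated WT array 4 was set against the mean of untreated arrays 4 and 4b. In p38α∆ MSCs the change was −1.28 within number 1, the only one that both p38α∆ groups hold. The 2 responses differed by −0.02, with a 95% interval of −0.27 to 0.23.

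Id2, the family member that also binds the retinoblastoma protein, had values of 5.93, 5.39, 5.30 and 5.34 in WT MSCs and of 5.05, 4.73 and 4.58 with TGF-β. In p38α∆ MSCs they were 5.75 and 5.51, and with TGF-β 5.15, 4.86 and 4.82. The array numbered 1 was the highest of each group, and treated and untreated arrays of a genotype did not overlap. Id2 fell 1.67-fold in WT MSCs, a log2 change of −0.74 (limma, SE 0.10, adjusted p = 0.000945), and 1.54-fold in p38α∆ MSCs, a log2 change of −0.62 (SE 0.13, adjusted p = 0.0161). Leaving out either untreated p38α∆ array ended the second call (adjusted p = 0.117 without array 1 and 0.104 without array 3), and so did dropping array 1 of TGF-β-treated p38α∆ MSCs (adjusted p = 0.0583).

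The second Id2 probeset gave a larger fall than the brightest one. Its values were 4.64, 4.98, 5.10 and 5.11 in WT MSCs, 3.59, 3.69 and 3.75 with TGF-β, 4.84 and 6.01 in p38α∆ MSCs, and 3.65, 3.96 and 3.79 with TGF-β. Fitted changes were −1.27 (limma, SE 0.17, adjusted p = 0.000868) and −1.64 (SE 0.22, adjusted p = 0.00115). The untreated p38α∆ array 3, at 6.01, stood above every other array of this probeset. The third Id2 probeset, with a mean of 3.18 below the median of all probesets, did not pass (−0.29 in WT and −0.12 in p38α∆ MSCs).

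Id1 and Id4 did not pass in either genotype. Id1, the family member most often used as a readout of BMP signalling, had values of 6.38, 6.07, 5.97 and 5.81 in WT MSCs, 6.05, 6.15 and 6.28 with TGF-β, 6.12 and 5.60 in p38α∆ MSCs, and 6.00, 5.90 and 5.87 with TGF-β. All groups with and without TGF-β overlapped. Its log2 fold change was 0.09 in WT MSCs (95% interval −0.19 to 0.36, adjusted p = 0.807) and 0.07 in p38α∆ MSCs (−0.28 to 0.43, adjusted p = 0.893, both in limma). Within the numbers the WT difference had no steady sign (−0.33 in number 1, 0.07 in number 3 and 0.39 in number 4).

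Id4, whose protein can oppose the other Id proteins, had values of 5.16, 4.64, 4.55 and 4.55 in WT MSCs, 4.96, 4.32 and 4.65 with TGF-β, 4.98 and 4.55 in p38α∆ MSCs, and 5.35, 4.48 and 4.44 with TGF-β. The array numbered 1 was again the highest in each group. For Id4 the log2 fold change was −0.11 in WT (95% interval −0.44 to 0.21) and 0.06 in p38α∆ MSCs (−0.36 to 0.49). Its other 2 probesets, with means of 3.09 and 2.99 below the median of all probesets, did not pass either.

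Of the 2 ligands, Bmp4, which drives mesoderm and bone formation, had values of 8.15, 8.54, 8.38 and 8.52 in WT MSCs and of 6.94, 7.55 and 7.14 with TGF-β. In p38α∆ MSCs they were 8.31 and 8.54, and with TGF-β 6.29, 7.02 and 7.06. Treated and untreated arrays did not overlap, and the TGF-β-treated p38α∆ array 1 was the lowest of all 12. Bmp4 fell 2.25-fold in WT MSCs, a log2 change of −1.17 (limma, SE 0.14, adjusted p = 0.000372), and 3.15-fold in p38α∆ MSCs, a log2 change of −1.65 (SE 0.18, adjusted p = 0.000277). The difference between the responses was −0.48 (95% interval −0.98 to 0.02, unadjusted p = 0.0567 and adjusted p = 0.945 in limma). Within number 1 the falls were −1.21 in WT and −2.02 in p38α∆ MSCs.

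Bmp2, an inducer of bone, lay below the median of all probesets on every array. Its values were 3.54, 3.44, 3.38 and 3.39 in WT MSCs, 3.67, 3.69 and 3.57 with TGF-β, 3.50 and 3.49 in p38α∆ MSCs, and 3.52, 3.45 and 3.50 with TGF-β. The treated WT arrays lay just above the untreated ones, by 0.20 on the log2 scale (limma, SE 0.05, adjusted p = 0.059), a difference that passed when the WT array 1 was left out (0.23, adjusted p = 0.0424). In p38α∆ MSCs it was 0.03 (95% interval −0.13 to 0.18).

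Bmpr1a, the type I receptor of both ligands, likewise lay below that median on every array. Its values were 3.81, 3.67, 3.51 and 3.74 in WT MSCs, 4.18, 3.46 and 3.73 with TGF-β, 3.60 and 3.55 in p38α∆ MSCs, and 4.08, 3.61 and 3.53 with TGF-β. The 2 treated arrays numbered 1 were the only ones above 4. Fitted log2 fold changes were 0.09 in WT (95% interval −0.19 to 0.36) and 0.20 in p38α∆ MSCs (−0.16 to 0.56), and neither passed.

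**Figure D2:**
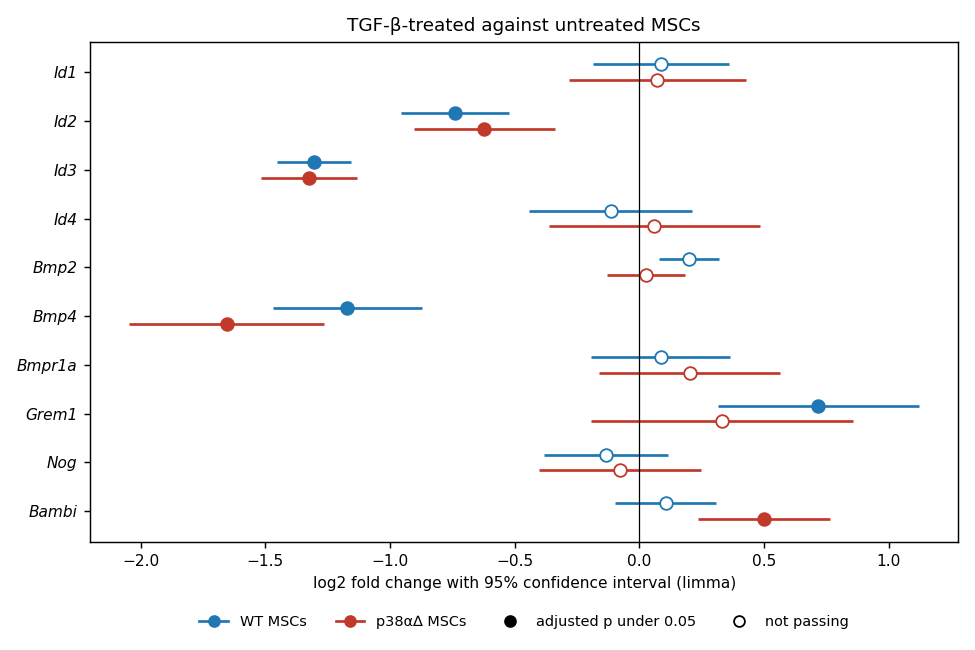
Log2 fold change with TGF-β (horizontal axis) of the 10 genes in WT (blue) and p38α∆ (red) MSCs, with 95% confidence intervals from limma and filled points where the adjusted p was under 0.05. Id2, Id3 and Bmp4 lie below 0 with filled points in both genotypes (Id3 at −1.31 and −1.33), Grem1 is filled only in WT (0.72) and Bambi only in p38α∆ MSCs (0.50).

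The 3 antagonists had smaller log2 fold changes than Bmp4 and Id3. Grem1, a secreted trap for BMP2 and BMP4, had values of 7.53, 8.02, 7.47 and 7.37 in WT MSCs and of 7.94, 8.91 and 8.15 with TGF-β. In p38α∆ MSCs they were 7.04 and 7.69, and with TGF-β 7.04, 7.87 and 7.87. The untreated WT array 3 lay above the treated WT array 1, so the WT groups overlapped, whereas within each number the treated WT array was the higher (by 0.40, 0.89 and 0.73). The fitted rise was 1.64-fold in WT MSCs, a log2 value of 0.72 (limma, SE 0.18, adjusted p = 0.0424), and the log2 change was 0.33 in p38α∆ MSCs (SE 0.24, adjusted p = 0.567). The call in WT MSCs was lost when any 1 of 9 arrays was left out (adjusted p from 0.0569 to 0.205), that is any but WT array 1 and the TGF-β-treated p38α∆ arrays 1 and 4, and without the array number as a block (0.73, adjusted p = 0.380). The 2 responses differed by −0.38, with a 95% interval of −1.06 to 0.29, and the difference did not pass (adjusted p = 0.945 in limma).

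Bambi, a decoy receptor for TGF-β and BMP type I receptors, had values of 6.00, 5.53, 5.59 and 5.50 in WT MSCs, 5.82, 5.77 and 5.74 with TGF-β, and 5.74 and 5.63 in p38α∆ MSCs. With TGF-β the p38α∆ arrays rose to 6.16, 6.23 and 6.18, which lay above all 9 other arrays. Bambi rose 1.41-fold in p38α∆ MSCs, by 0.50 on the log2 scale (limma, SE 0.12, adjusted p = 0.0344), and its change in WT MSCs was 0.11 (SE 0.09, adjusted p = 0.649). The difference between the responses, 0.39 (95% interval 0.06 to 0.73), had an unadjusted p of 0.0263 and an adjusted p of 0.945 in limma. The call in p38α∆ MSCs was lost without the array number as a block (adjusted p = 0.108) and when any 1 of 7 arrays was left out (adjusted p from 0.0531 to 0.203), that is any but WT arrays 1, 3 and 4b and the treated arrays 1 of both genotypes.

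Nog, the classical BMP antagonist, did not pass, and its mean over all arrays lay just below the median of all probesets. Its values were 4.50, 4.13, 4.10 and 4.26 in WT MSCs, 4.29, 4.02 and 4.12 with TGF-β, 4.55 and 4.20 in p38α∆ MSCs, and 4.69, 4.17 and 3.94 with TGF-β. Its fitted changes were −0.13 in WT (95% interval −0.38 to 0.12) and −0.08 in p38α∆ MSCs (−0.40 to 0.25).

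**Figure D3:**
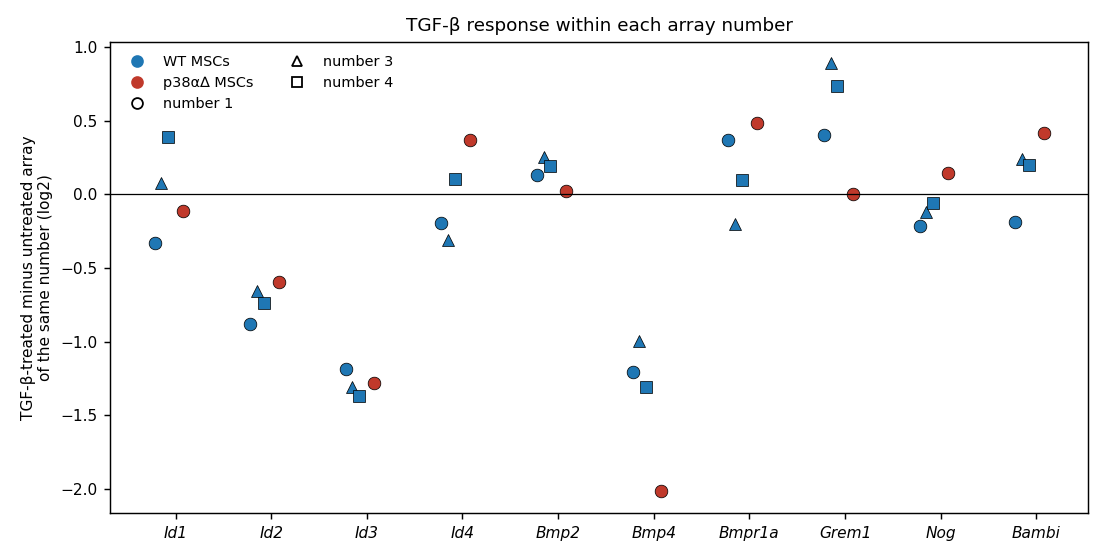
Difference in log2 value between the TGF-β-treated and the untreated array of the same number (vertical axis) for the 10 genes, in WT MSCs (blue, numbers 1, 3 and 4) and p38α∆ MSCs (red, number 1). For number 4 the untreated value is the mean of WT arrays 4 and 4b. Id2, Id3 and Bmp4 are below 0 in all 4 pairs and Bmp2 is above 0 in all 4, Grem1 is above 0 in the 3 WT pairs (0.40 to 0.89) and at −0.00 in the p38α∆ pair, and Id1 lies on both sides of 0.

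None of the 10 genes passed between the genotypes, with or without TGF-β. With TGF-β, 0.263% of all genes and 0.187% of all probesets passed. Of the 10 members 4 (Bambi, Grem1, Bmp4 and Bmp2) had an unadjusted p under 0.05 in limma. So did 3179 of all 45037 probesets, a base of probesets rather than of genes at their brightest probeset. Bambi was higher in the TGF-β-treated p38α∆ arrays (mean 6.19 ± 0.04, SD, n = 3) than in the TGF-β-treated WT arrays (5.77 ± 0.04, SD, n = 3), by 0.39 (limma, SE 0.11, adjusted p = 0.270, unadjusted p = 0.00330), and by 0.34 within number 1 and 0.44 within number 4. Without the WT array 1, which is in neither group, it passed (0.40, adjusted p = 0.0401). Grem1 was lower (7.59 ± 0.48 against 8.33 ± 0.51, SD, n = 3 each), by 0.67 on the log2 scale (SE 0.21, adjusted p = 0.394, unadjusted p = 0.00844), with differences of −0.89 within number 1 and −0.28 within number 4.

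Bmp4 was lower by 0.41 (limma, SE 0.16, adjusted p = 0.578, unadjusted p = 0.0236), with overlapping arrays and differences of −0.65 within number 1 and −0.07 within number 4. Bmp2 was lower by 0.14 (adjusted p = 0.693). Arrays of the 2 genotypes did not overlap for Bambi (higher) and for Id1, Bmp2 and Grem1 (lower), where 5.26% of all genes did not overlap upward and 3.45% downward. For Id3 the difference was −0.05, with a 95% interval of −0.21 to 0.12, and for Id2 it was 0.15 (−0.10 to 0.39).

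Without TGF-β the log2 differences of the 10 genes lay between −0.28 (Grem1) and 0.08 (Bmp4), and none had an unadjusted p under 0.05. Over all genes 0% passed, while 2049 of 45037 probesets had an unadjusted p under 0.05 in limma. None of the 10 members was without overlap, against 3.52% of all genes upward and 3% downward. Bmp4 stood at 8.42 ± 0.16 (SD, n = 2) in p38α∆ and 8.40 ± 0.18 (SD, n = 4) in WT MSCs, a fitted difference of 0.08 with a 95% interval of −0.28 to 0.43. For Id3 the interval was −0.20 to 0.15. The second Id2 probeset was higher by 0.52 (unadjusted p = 0.0235 and adjusted p = 0.987), by 0.20 within number 1 and by 1.02 within number 3, which holds the high array described above. The difference between the TGF-β responses of the genotypes passed for none of the 10 genes and for 0% of all genes (3 of 45037 probesets passed, or 0.00666%, and 2224 had an unadjusted p under 0.05 in limma), and among the members only Bambi had an unadjusted p under 0.05.

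**Figure D4:**
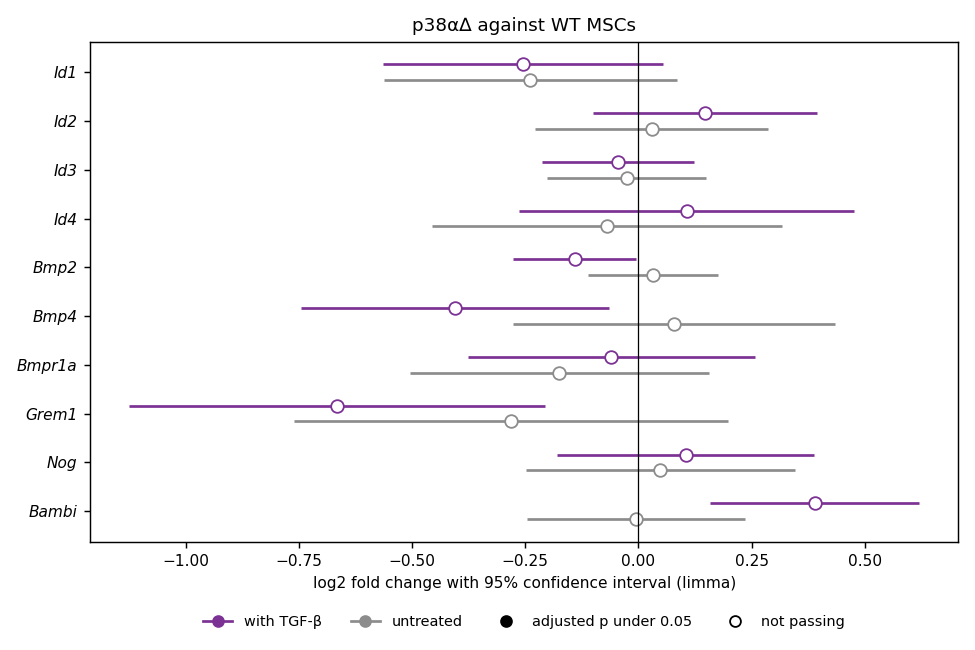
Log2 fold change of p38α∆ against WT MSCs (horizontal axis) of the 10 genes with TGF-β (purple) and untreated (grey), with 95% confidence intervals from limma. No point is filled, since no adjusted p was under 0.05, and with TGF-β the intervals of Bambi (0.16 to 0.62), Grem1, Bmp4 and Bmp2 leave out 0.

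Other genes of the pathway were taken from a list of 58, of which 51 were measured. The list was also chosen with earlier results of these data known. Each gene was read from its brightest probeset, on which the counts below rest, and another probeset is given only for Bmpr2. With TGF-β, 6 rose, 3 fell and 42 did not pass in WT MSCs, and 6 rose, 2 fell and 43 did not pass in p38α∆ MSCs, which is 17.6% and 15.7% of them against the 7.95% and 7.1% of all genes given above. None passed in a comparison of genotypes, where 11 of the 51 had an unadjusted p under 0.05 with TGF-β and 3 without it (limma). Of all 45037 probesets 3179 and 2049 did, a base of probesets rather than of genes at their brightest probeset. None of the 9 other ligands passed with TGF-β in either genotype, and neither did Acvrl1, an endothelial type I receptor (−0.02 and 0.03). The probesets of Acvrl1 and of all these ligands but Gdf2 had means below the median of all probesets. Whether those probesets measure their gene cannot be judged.

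Among receptors, Acvr1 (ALK2), a type I receptor for BMPs, rose by 0.69 in WT (limma, adjusted p = 0.00054) and by 0.54 in p38α∆ MSCs (adjusted p = 0.0161). Tgfbr3 (betaglycan), a co-receptor that presents TGF-β2 and BMPs, fell by 0.44 (adjusted p = 0.0175) and 0.73 (adjusted p = 0.00532). For Bmpr2 the values were 0.63 (adjusted p = 0.168) and 0.44 at the brightest probeset, while another probeset gave 0.81 in WT MSCs (adjusted p = 0.0269).

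Among 14 extracellular antagonists, Fst (follistatin) and Fstl3, both traps for activins and some BMPs, rose in both genotypes. Fst went from 4.63, 4.70, 4.64 and 4.68 in WT MSCs to 5.60, 6.01 and 5.63 with TGF-β, and from 4.87 and 4.72 in p38α∆ MSCs to 5.48, 5.88 and 5.68. The log2 fold changes were 1.08 and 0.88 for Fst, and 1.37 (adjusted p = 0.000665) and 2.08 (adjusted p = 0.000304) for Fstl3.

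Among 8 signal transducers and their inhibitors, Smad7, which blocks receptor signalling and is a target of TGF-β, rose from 6.15, 6.25, 6.54 and 6.39 to 7.49, 7.56 and 7.56 in WT MSCs and from 5.90 and 6.19 to 7.67, 8.02 and 7.68 in p38α∆ MSCs. Its log2 fold changes were 1.22 and 1.68. Smad6, the inhibitor more selective for BMP receptors, did not pass (−0.26 and 0.06), and neither did the BMP Smads Smad1 (0.43, adjusted p = 0.0780, and 0.38) and Smad5 (−0.05 and 0.08). The third BMP Smad, Smad9, fell by 0.42 in WT MSCs (adjusted p = 0.0133), and its value in p38α∆ MSCs was −0.13. Smurf1, a ubiquitin ligase for BMP Smads, rose by 0.60 in p38α∆ MSCs (adjusted p = 0.00377), and its value in WT MSCs was 0.20. For Smad9 and Smurf1 the difference between the genotypes' responses did not pass.

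Other BMP targets moved both ways. Hey1, a repressor that both BMP and Notch signalling induce, fell from 5.87, 5.62, 5.61 and 6.11 to 5.00, 4.70 and 4.59 in WT MSCs and from 6.10 and 6.51 to 5.31, 4.81 and 4.65 in p38α∆ MSCs, by 1.06 and 1.32 on the log2 scale. Dlx2, a homeobox factor, rose by 1.01 and 0.89. Sp7 (osterix), a bone factor, rose by 0.50 in WT MSCs (adjusted p = 0.00859), and its value in p38α∆ MSCs was 0.28. The difference between the genotypes' responses did not pass for Sp7 either. Of the 3 E proteins that Id proteins bind, none passed at its brightest probeset. Tcf4 had −0.58 (adjusted p = 0.0526) and −0.66 (adjusted p = 0.0980 in limma), Tcf3 −0.18 and −0.15, and Tcf12 −0.12 and 0.00.

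**Figure D5:**
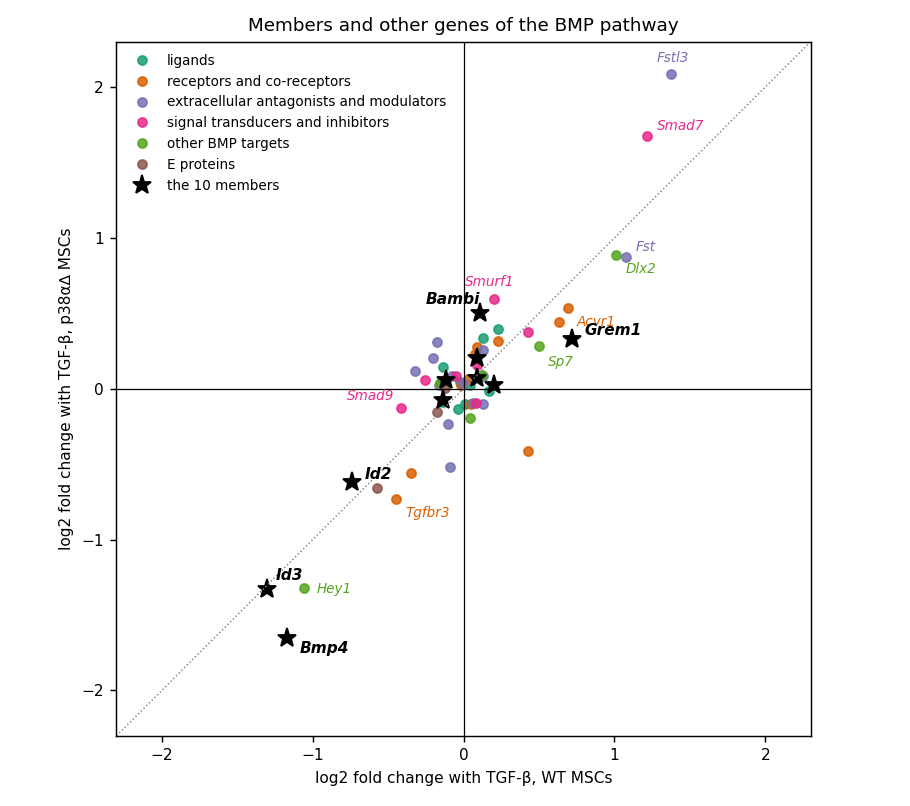
Log2 fold change with TGF-β in WT (horizontal axis) and p38α∆ (vertical axis) MSCs, with black stars for the 10 members, colored points for 51 other genes of the BMP pathway by role, and a dotted line of equal response. Id3, Bmp4 and Hey1 (−1.06 and −1.32) lie at the lower left, and Fstl3 (1.37 and 2.08), Smad7, Fst and Dlx2 at the upper right.

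The genes whose pattern over 11 arrays was most like that of Id1, after the mean of each array number was subtracted, were Sys1, a Golgi protein (r = 0.96), Rangrf, a Ran-binding protein (0.96), Gpat4, an enzyme of glycerolipid synthesis (0.95), Mpo, myeloperoxidase (0.95), and Obsl1, a cytoskeletal adaptor (0.95). Those least like it were Crebbp, an acetyltransferase and coactivator (−0.97), Myh10, a nonmuscle myosin (−0.95), Mtus2, a microtubule-binding protein (−0.93), Gpc4, a glypican (−0.92), and Atp7a, a copper transporter (−0.92). These are the extremes of 10639 genes and are given as a description, over arrays that were normalized together.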

How the data were processed

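The authors amplified 25 ng of total RNA, hybridized it to MG-430 PM arrays and processed the arrays with RMA (affy and affyPLM), and the deposited values are log2 intensities per probeset, used without further scaling. Scanning batch, a covariate in the study's own models, is not given per array in the sources used here. Of 45101 probesets, 64 controls were left out and 45037 fitted. Of these, 28898 had 1 gene symbol in the platform annotation, 551 had several and 15588 had none, and only the first kind was named. Groups were compared in 1 fit of 12 arrays with limma 3.58.1 in R 4.3.3 (two-sided), with the array number as a random block (duplicateCorrelation, estimated correlation 0.46) and 4b counted with 4. P-values were adjusted over all probesets by the Benjamini-Hochberg method at 0.05. The fit was tested on simulated data. The same-numbered pairs of arrays deviated together from their group means in all 14 cases (r 0.11 to 0.84, median 0.69). In number 4, r was 0.11 to 0.39. The numbers were taken to pair the arrays, which this check does not settle, and no source says what a number is. Deviations within a group sum to 0, so the pairs are not independent, and the 2 untreated p38α∆ arrays mirror each other. For the same reason, negative r between different numbers is partly built in. The 39 pairs of different numbers had r of −0.82 to 0.74 (median −0.44). The highest, between TGF-β-treated p38α∆ array 2 and TGF-β-treated WT array 3, exceeded every pair of number 4. Every pair of an array 1 with another number had a negative r. Those without an array 1 had a positive r, except WT array 3 with TGF-β-treated WT array 4 (−0.17). The check thus sets the arrays numbered 1 apart from the rest and cannot show pairing within the other numbers. Without the arrays numbered 1 the estimated correlation was 0.11 in place of 0.46, so it came largely from those arrays. The arrays 4 and 4b of WT MSCs were not identical (median absolute difference 0.09, as between arrays 3 and 4) and were counted separately. The named genes were all 10 members, every gene of the pathway list that passed in a comparison, 9 genes of that list that were named in any case (Acvrl1, Bmpr2, Smad1, Smad5, Smad6, Smad7, Tcf3, Tcf4 and Tcf12), and the 5 genes most and least like Id1. Of the pathway list, 7 genes were not analysed here. The members and lists were chosen with earlier results of these data known. Alternatives changed the block, the probeset per gene, the filter on dim probesets, the scaling, the variance model and the arrays used.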

Additional observations from a re-analysis of the deposited data

Results flagged for a closer look

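In untreated WT MSCs (4 arrays), the array numbered 1 stood apart from the other 3 at 2 of the 14 probesets, past the 95% critical value of Dixon's test. For Id2 it was at 5.93, with the nearest other array at 5.39, a gap of 0.855 of the range. For Id4 it was at 5.16, with the nearest at 4.64, a gap of 0.854 of the range. Chance flags about 1 in 20 such groups. The arrays numbered 1 also lie apart from the other 8 on the first principal component (−64.2 to −41.0 against 6.61 to 48.9), and the part of this in the Id2 and Id4 values was not tested.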

How the results depend on the processing

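The falls of Id3 and Bmp4 with TGF-β passed in both genotypes under every alternative run. Without the replicate block, 2 of the 10 genes passed in WT and 2 in p38α∆ MSCs (Id3 and Bmp4) in place of 4 and 4. With arrays left out in turn, 3 to 5 passed in WT MSCs (5 without WT array 1), 2 to 4 in p38α∆ MSCs (2 without either untreated p38α∆ array) and 0 to 1 between genotypes with TGF-β (Bambi, without WT array 1). Id2 in WT MSCs was lost only without the block (adjusted p = 0.0709). In p38α∆ MSCs Id2 was lost without the block (0.151) and after quantile normalization (0.0783), and Bambi with the numbers as fixed terms (0.0903) or a variance trend (0.0761). Grem1 in WT MSCs was lost with 4b as its own number (0.0570) and without the arrays numbered 1 (0.0712). The causes were not tested.

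Over the 8 estimates that passed, 136 of 164 alternative values kept direction and side, 28 no longer passed and 0 reversed. Over the other 42, 46 of 851 values reversed, all without passing, and all at 0.38 or less in size. Those with single arrays left out are given as ranges in the next paragraph. The others were, with TGF-β in WT MSCs, Bmpr1a without the arrays numbered 1 (−0.042). In p38α∆ MSCs they were Id4 (−0.012) and Bmp2 (−0.0075) without the block, and Id4 (−0.11) and Bmp2 (−0.0044) without the arrays numbered 1. Between genotypes with TGF-β they were Id4 (−0.037) and Nog (−0.030) without the arrays numbered 1. Untreated, they were Id4 (0.043) and Bambi (0.032) without the block, Id2 with fixed terms (−0.0071) and after quantile normalization (−0.014), Bambi without the arrays numbered 1 (0.089) and Id3 with only the groups compared (0.012). For the difference of responses they were Nog without the block (−0.0027), Id2 at its most variable probeset (−0.38), Id1 (0.044) and Id3 (0.0089) after quantile normalization, and Id1 (0.032), Id3 (0.014), Id4 (−0.024) and Nog (−0.071) without the arrays numbered 1.

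Arrays left out in turn gave, with TGF-β, −0.042 to 0.22 for Id1 and −0.045 to 0.23 for Bmpr1a in WT MSCs, and −0.13 to 0.32 for Id1, −0.21 to 0.19 for Id4 and −0.31 to 0.077 for Nog in p38α∆ MSCs. Between genotypes with TGF-β the ranges were −0.084 to 0.043 for Id3, −0.13 to 0.25 for Id4, −0.20 to 0.090 for Bmpr1a and −0.099 to 0.28 for Nog. Untreated they were −0.024 to 0.14 for Id2, −0.0091 to 0.16 for Bmp4 and −0.070 to 0.14 for Bambi. For the difference of responses they were −0.22 to 0.24 for Id1, −0.064 to 0.047 for Id3, −0.10 to 0.33 for Id4, −0.051 to 0.25 for Bmpr1a and −0.18 to 0.20 for Nog.

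Of all probesets, 2704 passed with TGF-β in WT MSCs, 2347 in p38α∆ MSCs, 84 between genotypes with TGF-β, 0 untreated and 3 for the difference of responses. Without the block these were 994, 1058, 19, 0 and 0. With 1 probeset per gene, the most variable of 17097 genes, 1681 and 1423 passed in the first pair. Between genotypes with TGF-β, fixed terms gave 13 and the arrays numbered 1 left out gave 32. With arrays left out in turn the ranges were 1541 to 3133, 1161 to 2712, 8 to 115, 0 to 5 and 0 to 1. The fit of only the p38α∆ groups was not run, because they share only number 1 and the block correlation could not be estimated. No detection calls were used here, so whether a probeset below the median of the scale measures its gene cannot be judged. Among the members, those below it were the probesets of Bmp2 and Bmpr1a, the third of Id2 and the other 2 of Id4. The probeset of Nog also lay below it, by a very small margin.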
